A study of Mus musculus with 22 samples.

Results

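The genes described here encode 6 membrane proteins that bring bile acids and other organic anions into cells, and their RNA was measured in mouse liver with and without the enzyme Cyp2c70 and with and without ursodeoxycholic acid in the diet. They were taken by gene symbol from the deposited array values, and each symbol stood on a single row, which gave 6 of the 24011 named genes tested. Slc10a1 encodes NTCP and Slc10a2 encodes ASBT, both sodium-coupled bile acid carriers. Slco1a1, Slco1a4, Slco1b2 and Slco2b1 encode sodium-independent organic anion carriers of the OATP family.

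Liver takes up bile acids from portal blood across the sinusoidal membrane of hepatocytes. NTCP carries most conjugated bile acids across that membrane, and the OATPs carry unconjugated bile acids, bilirubin, hormone conjugates and drugs. ASBT is the carrier of the ileal enterocyte and of the cholangiocyte, the epithelial cell of the bile duct, and it is low in hepatocytes. Cyp2c70 is the mouse liver enzyme that makes the hydrophilic muricholic acids, and ursodeoxycholic acid (UDCA) is a hydrophilic bile acid used as a drug.

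The study hybridised total liver RNA from 22 female mice of C57BL/6J background, all aged 12 weeks, with 1 Affymetrix MoGene 2.0 ST array per mouse. WT_chow was 5 wild-type mice fed chow, and KO_chow was 5 Cyp2c70 knockout mice fed the same. WT_UDCA and KO_UDCA were 6 wild-type and 6 Cyp2c70 knockout mice fed chow with 0.1% UDCA for 7 weeks from the age of 5 weeks. The sources used here do not give how the knockout allele was made, and males were not studied. Mice were numbered within a group in record order, so a number names a mouse and pairs nothing.

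Levels are given as log2 of the deposited array intensity, and a change is a difference of 2 group means on that scale. A gene was called changed at a Benjamini-Hochberg adjusted p below 0.05 in a limma fit over all 24011 genes and 22 arrays. Levels of different genes on an array are not comparable, so each gene is compared with itself across mice. In bulk tissue, fewer cells of a type and less RNA per cell cannot be told apart.

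The stretches of DNA upstream of 4 of the genes are shown because they held matches to motifs of factors known to act on liver genes. The 2 other carriers had none in the window searched. The stretches shown come from RefSeq on GRCm38.p6, which held a start window for all 6 genes, and run 5′ to 3′ on the strand of the gene up to its annotated beginning. They are Slc10a1 at chr12:80968706-80968955 on the minus strand, Slc10a2 at chr8:5105288-5105537 on the minus strand, Slco1a1 at chr6:141946963-141947212 on the minus strand and Slco1b2 at chr6:141629268-141629451 on the plus strand. Capitals mark matches to 4 motifs searched on both strands, AP-1 (TGANTCA), FOXA (TGTTTGC), STAT5 (TTCNNNGAA) and the nuclear receptor half-site (AGGTCA).
Slc10a1: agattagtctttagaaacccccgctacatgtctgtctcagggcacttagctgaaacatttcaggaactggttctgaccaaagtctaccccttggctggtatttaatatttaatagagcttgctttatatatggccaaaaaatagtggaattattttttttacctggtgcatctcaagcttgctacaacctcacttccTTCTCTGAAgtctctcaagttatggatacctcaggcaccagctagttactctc
Slc10a2: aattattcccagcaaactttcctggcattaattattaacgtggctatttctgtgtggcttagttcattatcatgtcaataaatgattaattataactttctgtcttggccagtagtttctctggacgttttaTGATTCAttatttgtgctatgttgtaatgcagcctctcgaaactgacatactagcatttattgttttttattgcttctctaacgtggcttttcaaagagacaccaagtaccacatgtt
Slco1a1: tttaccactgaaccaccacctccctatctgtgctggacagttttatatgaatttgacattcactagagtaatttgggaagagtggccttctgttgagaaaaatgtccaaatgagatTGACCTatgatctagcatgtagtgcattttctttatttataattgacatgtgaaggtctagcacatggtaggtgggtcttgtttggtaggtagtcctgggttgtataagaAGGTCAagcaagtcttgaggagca
Slco1b2: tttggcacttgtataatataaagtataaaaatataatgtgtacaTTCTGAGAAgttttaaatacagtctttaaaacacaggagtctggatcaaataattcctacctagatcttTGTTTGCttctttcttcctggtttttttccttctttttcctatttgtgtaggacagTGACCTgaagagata

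The stretch of Slc10a1 held a STAT5-type match 53 to 45 bases before the start. That of Slc10a2 held an AP-1-type match 118 to 112 bases before its start. Slco1a1 had a half-site 134 to 129 bases before the start and another 24 to 19 bases before it. Slco1b2 had a STAT5-type match, a FOXA-type match and a half-site, none overlapping another, and its stretch is shorter because an annotated transcript begins ahead of the start used for the window. No match was found for Slco1a4 or Slco2b1 in the window searched, the outermost of each gene. Slco2b1 has 3 annotated windows and Slc10a1 has 2, and the inner ones were not searched. Among 27025 genes with a window of 250 bases, 6.85% held the AP-1 motif, 4.31% the FOXA motif, 7.14% the STAT5 motif and 13.8% the half-site, so a match describes these letters and nothing more.

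Array medians lay between 4.84 and 4.96 log2 units in all 22 mice. Cyp2c70 itself ran from 11.28 to 11.62 in WT_chow and from 11.22 to 11.58 in WT_UDCA, against 10.52 to 10.83 in KO_chow and 10.27 to 10.74 in KO_UDCA, so no knockout mouse overlapped a wild-type mouse. The sources used here do not give whether its probes lie in the deleted part. On the first principal component of all genes, with 26.7% of the variance, KO_chow mice spread from 15.7 to 53.4, with replicates 2 and 5 highest, and every other mouse was below 0. The array numbers in the titles run through the 4 groups from 1 to 15 and again from 16 to 22. Whether these were separate runs is not stated, and replicate 5 is the 1 KO_chow mouse of the second stretch. Hepatocyte markers such as Alb and Ttr were high in all mice, with a list mean of 11.73 to 11.90.

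The comparison of KO_chow with WT_chow asks how loss of Cyp2c70 alters the uptake carriers on chow. Of the 6 genes, 5 fell and 1 rose. Slc10a1, Slco1a1, Slco1a4, Slco1b2 and Slco2b1 were 1.42-fold to 3.05-fold lower in KO_chow, and Slc10a2 was 5.98-fold higher. Of all 24011 genes, 13.7% were called in this comparison, 7.69% higher and 6.03% lower. Groups did not overlap for 5 of the 6 carriers, against 9.43% of all genes, and the median change of the 6 was -0.64 beside -0.04 for all genes.

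**Figure D1:**
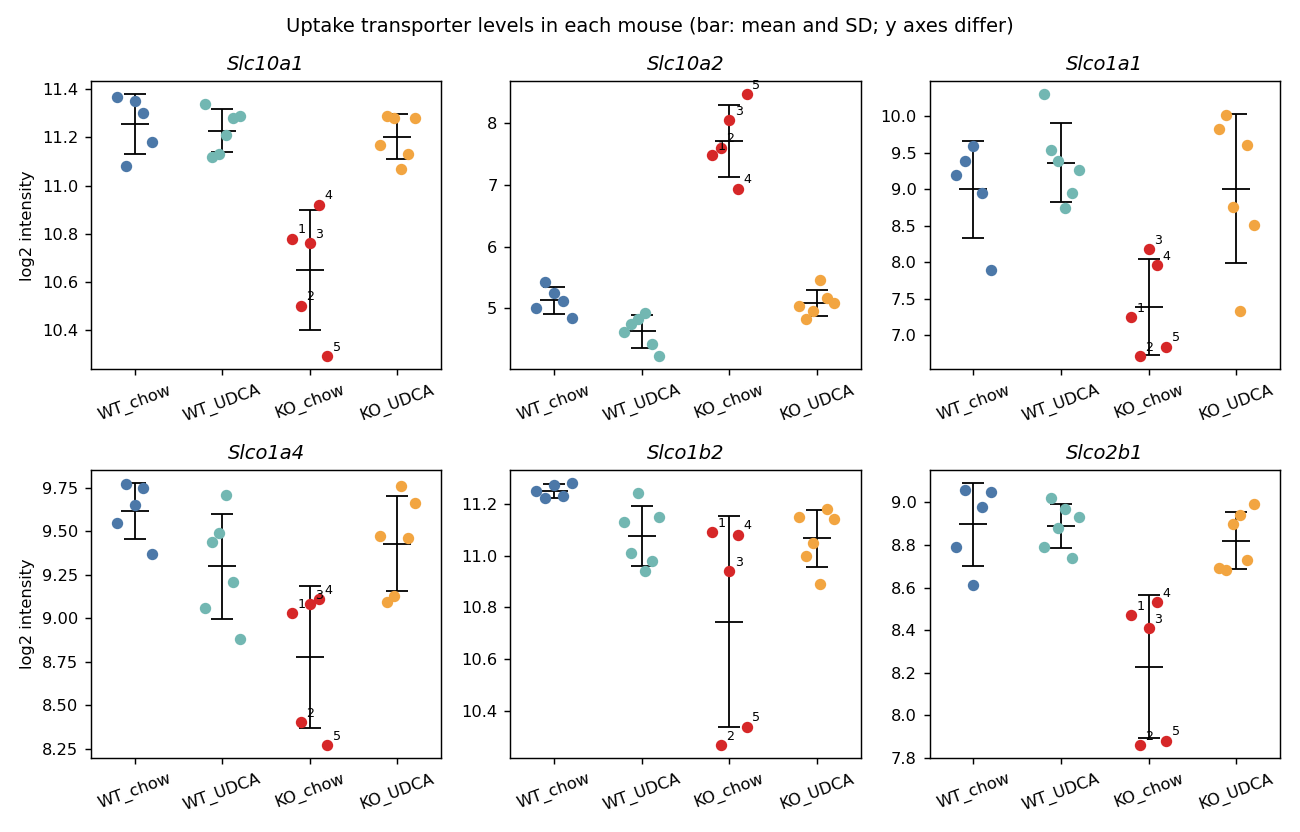
Log2 array intensity of each of the 6 carriers (y axis, its own scale in each panel) in every mouse (points) of the 4 groups (x axis), with bars for the mean and SD and replicate numbers beside KO_chow mice. The KO_chow mean lies below the other group means for 5 carriers and above them for Slc10a2. Its points overlap those of other groups for Slco1a1, Slco1a4 and Slco1b2, and replicates 2 and 5 are its lowest mice for the 5 that fell.

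Slc10a1 (NTCP), the main carrier of conjugated bile acids into hepatocytes, stood at 11.37, 11.08, 11.35, 11.30 and 11.18 in the 5 WT_chow mice and at 10.78, 10.50, 10.76, 10.92 and 10.29 in the 5 KO_chow mice. Every KO_chow mouse was below every WT_chow mouse. The change was -0.61 (SE 0.10, adjusted p 0.000212), or 1.52-fold lower. It was -0.53 (adjusted p 0.016) in the mice of arrays 1 to 15. In arrays 16 to 22 it was -0.95, a value that rests on KO_chow replicate 5 alone, as do all changes given for those arrays, and no test is read from them.

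Slc10a2 (ASBT) went the other way. Its levels were 5.01, 5.43, 5.25, 5.11 and 4.85 in WT_chow, close to the array median, and 7.48, 7.60, 8.05, 6.94 and 8.47 in KO_chow. The groups were far apart, with the lowest KO_chow mouse 1.81 above the WT_chow mean and the highest 3.34 above it. The change of 2.58 (SE 0.20, adjusted p 1.55e-08) had rank 8 by p among the 24011 genes. It was 2.29 in arrays 1 to 15 and 3.49 for the single KO_chow mouse of arrays 16 to 22, replicate 5. The fold of 5.98 rests on a WT_chow level close to the array median, and thus on a dim signal.

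Markers of other cells moved beside Slc10a2. Of 11 cholangiocyte markers measured, 8 rose in KO_chow and none fell, where 7.69% of all genes were called higher and 6.03% lower. The mean of the list went from 4.96 to 5.10 in WT_chow to 5.88 to 6.54 in KO_chow. Tspan8, a tetraspanin of ductal epithelium, rose by 3.30, Epcam by 1.45 and the keratin Krt19 by 0.93. Of 8 ileal enterocyte markers, 2 rose and 1 fell, and the list mean ran from 4.89 to 5.11 in WT_chow and from 5.09 to 5.53 in KO_chow, highest in replicates 2 and 5. The apolipoprotein Apoa4, also made by liver, rose by 1.03 (adjusted p 0.000205) and the villus actin binder Vil1 by 0.49 (adjusted p 0.013), while the fatty acid binding protein Fabp2 stood at -0.44 (adjusted p 0.0332) and Cdh17 at 0.94 (adjusted p 0.107). The brush border enzymes Sis and Lct and the ileal bile acid binding protein Fabp6 were below the array median in all 22 mice, and so was Vil1. The part of these cells in the Slc10a2 result was not tested.

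**Figure D2:**
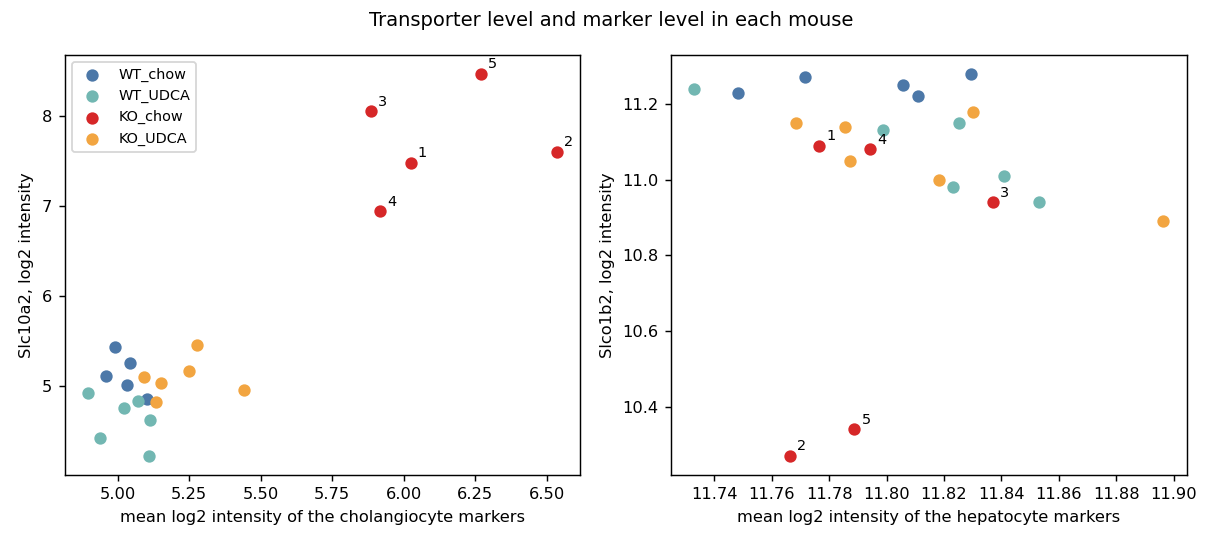
Left, Slc10a2 level (y axis, log2 intensity) against the mean log2 intensity of 11 cholangiocyte markers (x axis) in each of 22 mice. Right, Slco1b2 level against the mean of 10 hepatocyte markers. Colours are the 4 groups and numbers name KO_chow mice. KO_chow stands apart on both axes at left, whereas at right its hepatocyte marker mean lies within the range of the other groups.

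Slco1a1, an OATP that is higher in male than in female mouse liver, was the most variable of the carriers. WT_chow mice stood at 9.19, 9.38, 9.59, 8.94 and 7.89, and KO_chow mice at 7.25, 6.71, 8.18, 7.96 and 6.84. WT_chow replicate 5 lay below 2 of the KO_chow mice, so the groups overlapped. The change was -1.61 (SE 0.42, adjusted p 0.0122), or 3.05-fold lower. It was -1.86 (adjusted p 0.0477) in arrays 1 to 15 and -1.57 in arrays 16 to 22, from that single KO_chow mouse.

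Slco1a4, an OATP that is higher in female liver and induced through the receptor PXR, had levels of 9.55, 9.77, 9.65, 9.75 and 9.37 in WT_chow and of 9.03, 8.40, 9.08, 9.11 and 8.27 in KO_chow. No KO_chow mouse reached the lowest WT_chow mouse. It fell by 0.84 (SE 0.18, adjusted p 0.00217), or 1.79-fold. The change was -0.75 (adjusted p 0.0301) in arrays 1 to 15 and -1.29 in arrays 16 to 22, from replicate 5 alone.

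Slco1b2, the liver OATP related to human OATP1B1 and OATP1B3, held to a narrow range in WT_chow at 11.25, 11.22, 11.27, 11.23 and 11.28. KO_chow mice stood at 11.09, 10.27, 10.94, 11.08 and 10.34. All 5 were below WT_chow, 3 of them by little and 2 by much more. The change was -0.50 (SE 0.13, adjusted p 0.0104). The SD was 0.41 in KO_chow and 0.03 in WT_chow, so the variance shared by all groups in the fit is too small for KO_chow and too large for WT_chow. With only the 10 arrays of these groups the adjusted p was 0.0741, and in arrays 1 to 15 the change was -0.40 with an adjusted p of 0.177, against -0.91 for the single KO_chow mouse of arrays 16 to 22.

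Slco2b1, an OATP found in many tissues, was at 8.79, 9.06, 8.61, 8.98 and 9.05 in WT_chow and at 8.47, 7.86, 8.41, 8.53 and 7.88 in KO_chow. The groups came close but did not overlap. It fell by 0.67 (SE 0.13, adjusted p 0.000898), or 1.59-fold. The change was -0.50 in arrays 1 to 15, where the adjusted p was 0.075. For the single KO_chow mouse of arrays 16 to 22 it was -1.14.

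The KO_chow mice did not share the decrease equally. Replicates 2 and 5 were the lowest mice of the group for all 5 falling carriers, and for none of these did they overlap replicates 1, 3 and 4. For Slco1b2 they stood at 10.27 and 10.34 against 10.94 to 11.09, for Slco1a4 at 8.27 and 8.40 against 9.03 to 9.11, and for Slco2b1 at 7.86 and 7.88 against 8.41 to 8.53. Slc10a1 showed a smaller step, from 10.29 and 10.50 to 10.76 to 10.92. Slc10a2 did not follow it, since replicate 5 was highest at 8.47 but replicate 3 came next at 8.05, above replicate 2 at 7.60. The same replicates 2 and 5 had the highest cholangiocyte marker means, 6.54 and 6.27, and the highest means of 8 monocyte-derived macrophage markers, 8.12 and 7.63 against 6.55 to 7.06. Their part in the fall of the carriers was not tested.

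**Figure D3:**
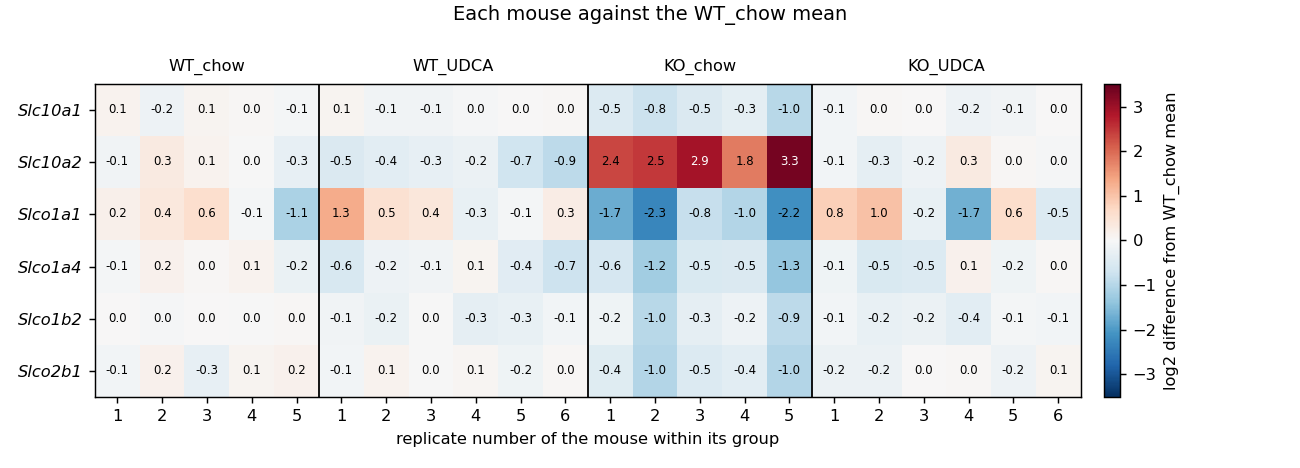
Difference of each mouse from the WT_chow mean of the same gene (colour and number, log2 units), with 1 row per carrier and 1 column per mouse, grouped by genotype and diet. The 5 falling carriers are bluest in KO_chow replicates 2 and 5, Slc10a2 is red in all 5 KO_chow mice, and Slco1a1 varies within every group.

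Without KO_chow replicates 2 and 5, 3 of the 6 carriers were called against WT_chow, where 4.54% of all genes were. Slc10a1 was then at -0.44 (adjusted p 0.00434), Slco2b1 at -0.43 (adjusted p 0.0234) and Slc10a2 at 2.36 (adjusted p 1.75e-07). Slco1a1 at -1.20 (adjusted p 0.195), Slco1a4 at -0.54 (adjusted p 0.0694) and Slco1b2 at -0.21 (adjusted p 0.206) kept their direction but were no longer called. Since replicates 2 and 5 were the lowest mice for every falling carrier, leaving them out shrinks those changes by construction. Fewer mice remain as well, so the lost calls are a description and no test of the decrease.

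UDCA feeding of knockout mice was compared with chow feeding of knockout mice, with the same KO_chow arrays as above. Of the 6 carriers, 4 rose and 1 fell, where 11.2% of all genes were called, 5.03% higher and 6.22% lower. Slc10a1, Slco1a1, Slco1a4 and Slco2b1 were 1.47-fold to 3.07-fold higher in KO_UDCA, Slc10a2 was 6.17-fold lower, and Slco1b2 did not pass the test. Groups did not overlap for 3 of the 6, against 5.89% of all genes. Since KO_chow serves both comparisons, opposite signs in them are not independent of each other.

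Slc10a1 in KO_UDCA ran from 11.07 through a median of 11.23 to 11.29, above all KO_chow mice, and rose by 0.55 (SE 0.09, adjusted p 0.000478). Slc10a2 ran from 4.82 through 5.06 to 5.45, below all KO_chow mice, and fell by 2.63 (SE 0.19, adjusted p 1.38e-08), the second smallest p of all genes tested. Slco2b1 ran from 8.68 through 8.81 to 8.99, again with no overlap, and rose by 0.59 (SE 0.12, adjusted p 0.00235). These 3 were the carriers whose KO_UDCA and KO_chow mice were fully apart. Beside Slc10a2, 8 of the 11 cholangiocyte markers fell, against 6.22% of all genes. Their list mean lay between 5.09 and 5.44 in KO_UDCA, and this was not tested as a source of the change.

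Slco1a1 in KO_UDCA spread over 7.33 to 10.02 around a median of 9.18, and the lowest mouse, replicate 4, was within the KO_chow range. The SD of 1.02 was the largest of any carrier in any group. The change was 1.62 (SE 0.41, adjusted p 0.0109). Slco1a4 ran from 9.09 through 9.46 to 9.76, so its lowest mouse was just under the highest KO_chow mouse at 9.11, and it rose by 0.65 (SE 0.17, adjusted p 0.013). Without KO_chow replicate 2 or without replicate 5 its adjusted p was 0.0545 or 0.0585.

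Slco1b2 in KO_UDCA ran from 10.89 through 11.09 to 11.18. That range spans the values of KO_chow replicates 1, 3 and 4, at 10.94 to 11.09. The change of 0.32 (SE 0.12) had an unadjusted p of 0.016 and an adjusted p of 0.101, and its 95% confidence interval ran from 0.07 to 0.58. It was 0.03 without KO_chow replicates 2 and 5, and its adjusted p was 0.0305 without KO_chow replicate 1 and 0.0317 without replicate 4.

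Without KO_chow replicates 2 and 5, Slc10a1 at 0.39 (adjusted p 0.0139) and Slc10a2 at -2.41 (adjusted p 1.47e-07) were the 2 carriers still called between KO_UDCA and KO_chow, where 2.8% of all genes were. Slco1a1 stood at 1.21 (adjusted p 0.2), Slco1a4 at 0.36 (adjusted p 0.292) and Slco2b1 at 0.35 (adjusted p 0.0783). As above, leaving out the lowest mice shrinks the rises by construction. In arrays 1 to 15 Slc10a1 stood at 0.45 (adjusted p 0.0218) and Slc10a2 at -2.44 (adjusted p 4.32e-06), and the other carriers were not called.

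In wild-type mice UDCA changed none of the 6 carriers at the adjusted threshold, in a comparison where 0% of all genes were called by limma. At an unadjusted p below 0.05, 1 of the 6 and 5.57% of all genes passed. That gene was Slc10a2, which in WT_UDCA ran from 4.22 through 4.68 to 4.92, below the array median in all 6 mice, against 4.85 to 5.43 and above the median in all 5 mice of WT_chow. Its change was -0.50 (95% confidence interval -0.90 to -0.11, unadjusted p 0.0151, adjusted p 0.794), and the groups overlapped. The split at the median was narrow, since each mouse is set against the median of its own array. WT_UDCA replicate 4 at 4.92 lay below its median of 4.96, and WT_chow replicate 5 at 4.85 lay above its median of 4.84.

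The other carriers in WT_UDCA lay near WT_chow, and their intervals set how far they could have moved. Slc10a1 ran from 11.12 through 11.24 to 11.34, with a change of -0.03 (-0.22 to 0.17). Slco2b1 ran from 8.74 through 8.91 to 9.02, with a change of -0.01 (-0.26 to 0.24). Neither interval reaches the difference seen between KO_chow and WT_chow in the same gene. Slco1a1 ran from 8.74 through 9.33 to 10.30, and its interval of -0.48 to 1.20 is wide. Slco1a4 ran from 8.88 through 9.32 to 9.71 and Slco1b2 from 10.94 through 11.07 to 11.24, with changes of -0.32 (-0.66 to 0.03) and -0.17 (-0.43 to 0.08).

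With both genotypes on UDCA, none of the 6 carriers was called, and 0.0167% of all genes were. Unadjusted, 1 of the 6 and 5.45% of all genes passed. It was again Slc10a2, 0.46 higher in KO_UDCA than in WT_UDCA (95% confidence interval 0.08 to 0.83, unadjusted p 0.0198, adjusted p 0.839), with overlapping groups. The change was -0.02 for Slc10a1 (-0.21 to 0.16), -0.01 for Slco1b2 (-0.25 to 0.23) and -0.07 for Slco2b1 (-0.31 to 0.17). Slco1a4 differed by 0.13 (-0.20 to 0.46) and Slco1a1 by -0.35 (-1.16 to 0.45).

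Treated knockout mice were also set against wild-type mice on chow. None of the 6 carriers was called, 0.025% of all genes were, and unadjusted 0 of the 6 and 5.62% of all genes passed. Slco1b2 was the carrier whose groups did not overlap, as for 0.916% of all genes, since all 6 KO_UDCA mice at 10.89 to 11.18 were below the 5 WT_chow mice at 11.22 to 11.28. Its change was small, -0.18 (95% confidence interval -0.44 to 0.07, adjusted p 0.934). Slc10a2 differed by -0.05 (-0.44 to 0.35) and Slc10a1 by -0.05 (-0.25 to 0.14).

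**Figure D4:**
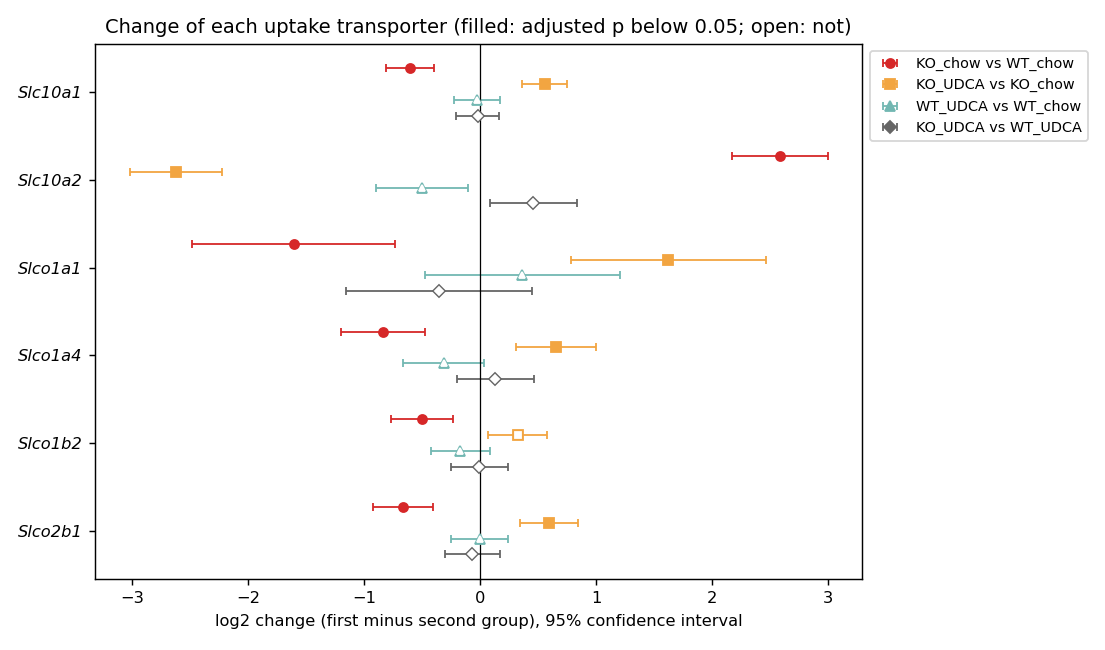
Change of each carrier in 4 comparisons (x axis, log2, first group minus second, with 95% confidence intervals from the limma fit), with filled symbols at an adjusted p below 0.05. Slc10a2 has the largest changes, at 2.58 and -2.63, and both comparisons without KO_chow hold no filled symbol.

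The order of the group means thus had 1 group apart for most carriers. For Slc10a1 the means were 11.26 ± 0.12 (SD, n = 5) in WT_chow, 11.23 ± 0.09 (n = 6) in WT_UDCA, 11.20 ± 0.09 (n = 6) in KO_UDCA and 10.65 ± 0.25 (n = 5) in KO_chow, and the last step was the one that passed the test. Slco2b1 had the same order at 8.90 ± 0.19, 8.89 ± 0.10, 8.82 ± 0.14 and 8.23 ± 0.33, with the same step called. For Slco1a1 the order was WT_UDCA at 9.36 ± 0.54, KO_UDCA at 9.01 ± 1.02, WT_chow at 9.00 ± 0.67 and KO_chow at 7.39 ± 0.66, and again the last step passed.

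Slc10a2 was ordered from KO_chow at 7.71 ± 0.58 down to WT_chow at 5.13 ± 0.22, KO_UDCA at 5.08 ± 0.22 and WT_UDCA at 4.63 ± 0.27, and the first step passed. Slco1b2 descended from WT_chow at 11.25 ± 0.03 to WT_UDCA at 11.08 ± 0.11, KO_UDCA at 11.07 ± 0.11 and KO_chow at 10.75 ± 0.41, and no neighbouring step passed, although its ends did. Slco1a4 descended from WT_chow at 9.62 ± 0.16 to KO_UDCA at 9.43 ± 0.27, WT_UDCA at 9.30 ± 0.30 and KO_chow at 8.78 ± 0.41. Its last step, between groups that differ in genotype and diet, was not tested, and their ranges overlap at 8.88 to 9.71 and 8.27 to 9.11.

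The genotype by diet interaction asks whether the UDCA difference in knockout mice differs from that in wild-type mice. It was called for 3 of the 6 carriers, where 2.67% of all genes were called. Slc10a2 had an interaction of -2.12 (SE 0.27, adjusted p 9.11e-05), Slco1a4 of 0.97 (SE 0.24, adjusted p 0.0298) and Slc10a1 of 0.58 (SE 0.13, adjusted p 0.0199). Slco2b1 at 0.60 (adjusted p 0.0603), Slco1b2 at 0.49 (adjusted p 0.139) and Slco1a1 at 1.26 (adjusted p 0.276) did not pass. Without KO_chow replicates 2 and 5 the interaction was called for Slc10a2 alone, with Slc10a1 at 0.41 (adjusted p 0.0999) and Slco1a4 at 0.67 (adjusted p 0.188), and without replicate 2 alone Slc10a1 missed the threshold at an adjusted p of 0.0502.

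Among 5 other Slc10 genes, 1 fell in KO_chow and none rose, and with the 11 other Slco genes 2 of 16 were called, near the 13.7% of all genes. That gene was Slc10a5, an orphan member of the family expressed in liver, at -0.60 (adjusted p 0.0239). Among 11 other Slco genes, 1 rose and none fell, Slco3a1 at 0.76 (adjusted p 9.61e-05), and Slco1a5 and Slco1a6, close relatives of Slco1a1 and Slco1a4, were below the array median in every mouse. Also below it in every mouse were Slc10a6, Slco1c1, Slco4a1, Slco4c1, Slco5a1, Slco6b1, Slco6c1 and Slco6d1. The median change was 0.04 over the other Slc10 genes and -0.09 over the other Slco genes. The 2 of 16 called and the Slco median thus rest largely on dim genes, where a missing call says little about change.

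Of 5 other uptake genes measured, 1 fell, the nucleoside carrier Slc29a1 at -0.78 (adjusted p 0.000392). Of 9 export genes, 2 rose in KO_chow and none fell, so 3 of these 14 genes were called, beside 13.7% of all genes. Slc51b, a subunit of the basolateral bile acid exporter OSTα-OSTβ, rose by 1.22 (adjusted p 0.00216), and Abcb1a, a drug efflux pump, by 0.89 (adjusted p 0.002). Abcb11, the canalicular bile salt export pump, changed by -0.19 (adjusted p 0.311) and did not pass. In KO_UDCA against KO_chow, Slc51b fell by 1.91 (adjusted p 1.9e-05) and Slc29a1 rose by 0.83 (adjusted p 0.000191). Slc51b was above the array median in KO_chow mice only, so both of its changes rest on a dim signal in the other group. Its mean was also lower with UDCA in wild-type mice, at 3.71 in WT_UDCA and 4.61 in WT_chow, but was not called.

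**Figure D5:**
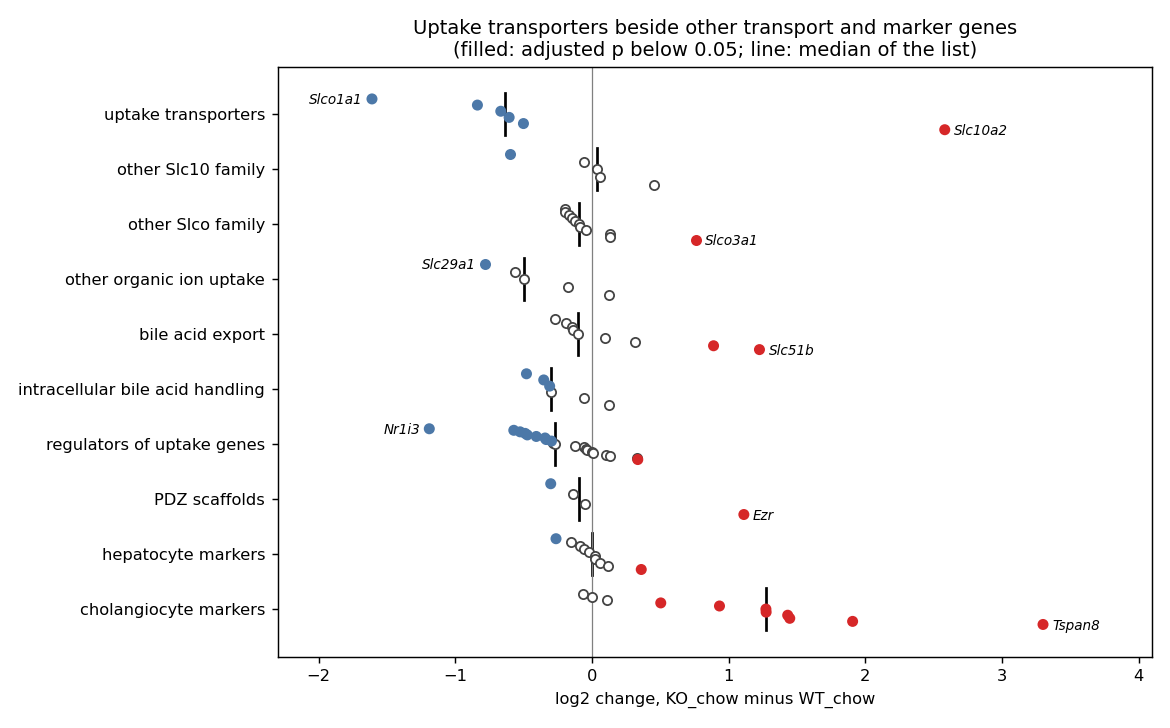
Change between KO_chow and WT_chow (x axis, log2) of each gene of 10 lists (y axis), with filled points at an adjusted p below 0.05 and a line at the median of the list. The 6 uptake carriers are all filled, 8 of 11 cholangiocyte markers are filled at right, and hepatocyte markers centre on 0. Of all genes, 13.7% were called.

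Of 6 genes for bile acid handling inside cells, 3 fell in KO_chow, where 6.03% of all genes were called lower. The 6 include the ileal Fabp6, which was below the array median in every mouse. The 3 genes that fell are named next. They were the bile acid CoA ligase Slc27a5 at -0.31 (adjusted p 0.0198), the acyl CoA synthetase Slc27a2 at -0.35 (adjusted p 0.0114) and Baat, which conjugates bile acids to taurine and glycine, at -0.48 (adjusted p 0.0286). Of 4 scaffold genes, 1 rose and 1 fell, beside 7.69% of all genes higher and 6.03% lower. Pdzk1, which tethers carriers at the membrane, stood at -0.30 (adjusted p 0.0367), and Ezr, which links membrane proteins to actin, rose by 1.11 (adjusted p 4.13e-06).

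Among 21 regulators of uptake genes measured, 9 fell in KO_chow and 1 rose, where 6.03% of all genes were called lower and 7.69% higher. Nr1i3, the xenobiotic receptor CAR, was lowest at -1.19 (adjusted p 0.00278), and Ppara, the fatty acid receptor, stood at -0.53 (adjusted p 0.0194). Nr1h4, the bile acid receptor FXR, stood at -0.49 (adjusted p 0.0239) and Ghr, the growth hormone receptor, at -0.41 (adjusted p 0.0221). Nr0b2, the repressor SHP that FXR induces, was at 0.33 (adjusted p 0.398) and Hnf4a, a main hepatocyte factor, at -0.04 (adjusted p 0.88), and neither passed. In KO_UDCA against KO_chow 8 of the 21 rose and 1 fell, beside 5.03% of all genes higher and 6.22% lower, with Nr1i3 at 0.90 (adjusted p 0.0185) and Nr1h4 at 0.43 (adjusted p 0.0447).

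The mean of 10 hepatocyte markers ran from 11.75 to 11.83 in WT_chow and from 11.77 to 11.84 in KO_chow, with 1 called higher and 1 lower. Most of them are among the brightest genes of the array, so their flat mean alone does not show that hepatocyte content was unchanged. The dimmest, the asialoglycoprotein receptor Asgr1, stood at -0.26 (adjusted p 0.0278) and the heme binder Hpx at 0.36 (adjusted p 0.00951). Among other lists, 3 of 8 pericentral hepatocyte markers, 1 of 6 periportal markers and 5 of 8 Kupffer cell markers fell. Of 7 stellate cell markers 4 rose, and of 8 sinusoidal endothelial markers 1 rose and 1 fell. In this comparison 7.69% of all genes were called higher and 6.03% lower, so a single call in a list this short says little about it. All 8 monocyte-derived macrophage markers rose, from a list mean of 5.19 to 5.48 in WT_chow to 6.55 to 8.12 in KO_chow. The part of these cells in the carrier results was not tested.

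Slco1a1 and Slco1a4, which differ between the sexes in opposite directions, fell in KO_chow beside genes of both kinds. Of 6 male-biased liver genes measured, 3 fell and none rose, with a list mean of 5.36 to 5.53 in WT_chow and 4.50 to 5.13 in KO_chow. Hsd3b5 and Cyp4a12a of this list were below the array median in all WT_chow and KO_chow mice, all female. A fall could hardly have been seen in these genes. Of 6 female-biased genes, 5 fell and none rose, with a list mean of 9.30 to 9.70 in WT_chow and 7.79 to 8.66 in KO_chow. Among all genes 6.03% were called lower. In KO_UDCA against KO_chow, 5 of the 6 female-biased genes rose and none of the male-biased genes was called. There 5.03% of all genes were called higher and 6.22% lower.

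For each carrier the 3 genes with the highest Pearson correlation of log2 level over the 22 arrays were looked up, as a description. The arrays share the group structure, in which KO_chow stands apart, so deviations from the group means were correlated too. Slc10a1 was most like Pctp, a phosphatidylcholine transfer protein, at r = 0.944 (0.806 for the deviations), Tnfaip8l1 at 0.944 (0.852) and Shmt1, a serine hydroxymethyltransferase, at 0.941 (0.782). Slc10a2 was most like Mmp12, a macrophage metalloelastase, at 0.963 (0.628), Cxadr, a junction protein, at 0.961 (0.714) and Tm4sf4 at 0.959 (0.717).

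Slco1b2 was most like Pnpla8 at 0.941 (0.902), Slc27a2 at 0.938 (0.896) and Bbox1, the last enzyme of carnitine synthesis, at 0.934 (0.895). Slco2b1 was most like Afmid, of tryptophan breakdown, at 0.962 (0.898), Vnn3 at 0.949 (0.837) and Clybl at 0.947 (0.837). Slco1a4 was most like Amdhd1, of histidine breakdown, at 0.939 (0.913), Coq8a at 0.891 (0.837) and Agtr1a at 0.888 (0.786). Slco1a1 was most like Sult3a1, a sulfotransferase, at 0.897 (0.810), Nceh1 at 0.881 (0.807) and Plbd1 at 0.868 (0.732).

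KO_chow is the most spread group for most carriers, so its mice weigh most in the deviations. Over the 17 mice of the other groups the deviations of Slco1a1 and Sult3a1 correlated at 0.838 and those of Slco1a4 and Amdhd1 at 0.859, close to the values with KO_chow. Those of Slco1b2 with Slc27a2 and Bbox1 stood at 0.600 and 0.514, those of Slco2b1 with Vnn3 at 0.536, those of Slc10a1 with Pctp at 0.448 and those of Slc10a2 with Mmp12 at 0.291, all lower than with KO_chow. Also lower were Slc10a1 with Tnfaip8l1 at 0.559 and Shmt1 at 0.440, Slc10a2 with Cxadr at 0.468 and Slco2b1 with Clybl at 0.574. Other partners of the same carriers held better. Slc10a2 with Tm4sf4 stood at 0.721 against 0.717 with KO_chow, Slco1b2 with Pnpla8 at 0.791 and Slco2b1 with Afmid at 0.742.

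Among the 15 pairs of carriers, Slc10a1 and Slc10a2 had the strongest correlation over the 22 arrays, -0.919. Their deviations from the group means correlated at -0.712, and at -0.587 over the 17 mice outside KO_chow. Several other pairs rested on KO_chow. The deviations of Slco1b2 and Slco2b1 stood at 0.653 with KO_chow and -0.205 without it, those of Slc10a1 and Slco1b2 at 0.688 and 0.109, and those of Slco1a4 and Slco2b1 at 0.637 and 0.300. Without KO_chow, Slc10a1 went from 0.255 to -0.510 with Slco1a4 and from 0.380 to -0.506 with Slco2b1. Slco1a1 and Slco2b1 went from -0.085 to -0.607. Slc10a2 and Slco1a4 went from 0.104 with KO_chow to 0.870 without it, with Slc10a2 dim in those mice.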

How the data were processed

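The authors deposited 1 table of linear intensity values for 22 arrays, which RMA and a probe-level model had summarised on the unlogged scale, per the labels. The submitters' processing notes name RMA with no version, and the sources used here do not give the probe set definition or the genome build. Intensities ran from 1.66 to 10284, and the values were already normalised between arrays by the authors' RMA step, which can compress differences of dim genes such as Slc10a2.

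Of 24973 rows, 24015 had 1 symbol in the platform annotation and 958 had none. Where several rows shared a symbol, as for 4 symbols, the brightest on average was kept, leaving 24011 genes. Of the 24015 rows, 23922 matched the RefSeq table of GRCm38.p6, used for names. Listed genes that matched no named row are not analysed here.

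The values were log2 transformed with no pseudocount or filter. The limma functions lmFit and eBayes (version 3.58.1, R 4.3.3) estimated group means from all 22 arrays, with two-sided p-values adjusted by Benjamini-Hochberg over 24011 genes in each of 6 comparisons. P-values measure the spread between mice, and the number of arrays limits the precision. The fit was tested on simulated data. Motifs and figures were made with Python 3.11.15.

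The carriers, the pathway lists and the marker lists were chosen with earlier results of these data known. Named were the 6 carriers in all comparisons, from each pathway list up to 4 called genes with the smallest p in KO_chow vs WT_chow plus Nr1h4, Nr0b2, Hnf4a, Abcb11 and Slc51b, marker lists by their counts with a few members, and the 3 genes most like each carrier, leaving out predicted genes and small RNAs. Alternatives covered the samples fitted, normalisation, log offset, dim filter, variance model, array weights, array order and left-out mice.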

Additional observations from a re-analysis of the deposited data

Results flagged for a closer look

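The genotype by diet interaction of the limma fit tests directly whether the effect of UDCA differed between knockout and wild-type mice. It was called for 3 of the 6 carriers, where 2.67% of all genes were called. The interaction was -2.12 on the log2 scale for Slc10a2 (adjusted p 9.11e-05), with all 6 KO_UDCA mice below all 5 KO_chow mice. It was 0.58 for Slc10a1 (adjusted p 0.0199), where all 6 KO_UDCA mice stood above KO_chow. It was 0.97 for Slco1a4 (adjusted p 0.0298), and leaving out any 1 of 8 of the 22 mice took that call away, with adjusted p-values between 0.0126 and 0.0717 over all 22. Dixon's test for 1 outlying mouse flagged none of the 24 sets of values, 1 for each carrier in each group. It cannot flag 2 mice that lie together, as KO_chow replicates 2 and 5 did, so it says nothing about that pair.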

How the results depend on the processing

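With arrays 16 to 22 left aside, Slc10a2 was called under every alternative in KO_chow vs WT_chow, in KO_UDCA vs KO_chow and in the interaction. Slc10a1 was so called in KO_chow vs WT_chow. With those arrays counted, the changes of Slc10a2 ran from 2.15 to 3.49, from -3.38 to -2.18 and from -2.92 to -1.86 in that order. Those of Slc10a1 ran from -0.95 to -0.44. The number of carriers called fell to 3 in KO_chow vs WT_chow without KO_chow replicates 2 and 5. It fell to 2 in KO_UDCA vs KO_chow without them and in arrays 1 to 15. In the interaction it was 1 in both of these settings, and between 1 and 4 with each mouse left out in turn, lowest without KO_chow replicate 2. Without replicates 2 and 5 the share of all genes called in KO_chow vs WT_chow and in KO_UDCA vs KO_chow fell too, as given above. These counts thus follow the mice fitted and are no result about the carriers alone. Arrays 16 to 22 alone, chosen after seeing the data, hold 1 mouse each of KO_chow and KO_UDCA, assumed to vary like the other groups, and only changes are read from them. A block for the array number gave the same calls. No paired analysis was possible because the labels carry no replicate numbers.

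Signs reversed in changes near 0 that were never called. In WT_UDCA vs WT_chow, Slco2b1 was 0.004 with array weights and 0.079 in arrays 1 to 15, and between -0.079 and 0.034 with each mouse left out, and Slc10a1 was 0.016 in arrays 16 to 22. In KO_UDCA vs WT_UDCA, Slco1b2 was 0.010 after quantile normalisation, 0.004 with arrays centred on their medians and 0.115 in arrays 16 to 22, where Slc10a1 was 0.022 and Slco2b1 0.106. With each mouse left out, Slco1b2 ran from -0.036 to 0.027 and Slc10a1 from -0.045 to 0.003. In KO_UDCA vs WT_chow, Slco1a1 was -0.053 with array weights, -0.171 with the array block and -0.282 in arrays 1 to 15, and ran from -0.268 to 0.346 with each mouse left out, and Slc10a2 from -0.119 to 0.029. In arrays 16 to 22, Slc10a1 was 0.038, Slc10a2 0.111 and Slco1a4 0.099 there. The cause of these moves was not tested. Slco2b1 passed the interaction test with 16 added before log2 (adjusted p 0.0418), with the dim filter (0.0329) and with trend and robust variance (0.0388). Slc10a2 in wild-type mice lies near the array median, which limits what its level there can show.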
